A study of Rattus norvegicus with 16 samples.

Results

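The 10 genes described here act in arachidonic acid metabolism and were measured in embryonic kidneys of a pair of inbred rat strains. They are the epoxygenase genes Cyp2j3 and Cyp2j4, the epoxide hydrolase genes Ephx1 and Ephx2, the cyclooxygenase genes Ptgs1 and Ptgs2, the prostaglandin synthase genes Ptges and Ptgds, and the lipoxygenase genes Alox5 and Alox15. Every probe set annotated with exactly 1 of these 10 symbols was taken, which gave 10 of 21371 gene-level probe sets, 1 per gene, and 110 of 213067 exon-level probe sets. No filter on low values was applied, so all 10 genes were kept. The genes were chosen with the strain differences of these arrays known, so the differences of these 10 are a description and no test is drawn from them.

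The kidneys came from Munich Wistar Frömter rats (MWF), an inbred strain with inherited albuminuria and few nephrons, at E15.5, and from spontaneously hypertensive rats (SHR) at E16.0. Male kidneys were used, 4 samples in MWF and 4 in SHR, and whole-organ total RNA was hybridised to Affymetrix rat gene arrays. The same 8 arrays were deposited as 1 value per gene and as 1 value per exon probe set, so these are not independent measurements. No treatment or transgene was involved. Strain and embryonic day cannot be told apart in this design. In RNA of a whole organ, fewer cells of a type and less RNA per cell cannot be told apart either. Whether the 4 samples were taken from different animals or litters is not stated, so the errors and p-values cover only the variation among these arrays, which may be technical.

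Arachidonic acid is cut from membrane phospholipids by phospholipases A2 and is then oxidised along 3 routes. Cyclooxygenases make prostaglandin H2, which terminal synthases turn into prostaglandins and thromboxane, lipoxygenases make leukotrienes and hydroxy acids, and cytochrome P450 enzymes make epoxides or the omega-hydroxylated product. Epoxides widen renal vessels and promote sodium excretion until soluble epoxide hydrolase, the product of Ephx2, turns them into diols. In the kidney Ptgs2 is known for the macula densa and the medullary interstitium, and mice without it develop abnormal kidneys after birth.

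The promoters of both P450 members and both cyclooxygenase genes are shown because within each pair the genes differed by very unequal amounts between the strains. Promoter windows were found in RefSeq for 8 of the 10 members. The 250 bases before the transcription start are printed 5′ to 3′ on the gene's strand, from the reference rat and not from MWF or SHR. Capitals mark motif matches on either strand. The motifs searched were the E-box letters CACGTG, the GC box letters GGGCGG and the TATA box letters TATAAA. The CCAAT box and the C/EBP-type sequence TTNNGCAA were searched as well.
Cyp2j4 promoter, GRCr8 chr5:116323043-116323292, minus strand: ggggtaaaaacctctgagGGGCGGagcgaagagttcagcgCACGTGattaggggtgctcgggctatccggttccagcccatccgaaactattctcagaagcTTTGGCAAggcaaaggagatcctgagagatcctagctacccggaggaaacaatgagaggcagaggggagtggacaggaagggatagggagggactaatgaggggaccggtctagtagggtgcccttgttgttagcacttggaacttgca
Cyp2j3 promoter, GRCr8 chr5:116360500-116360749, minus strand: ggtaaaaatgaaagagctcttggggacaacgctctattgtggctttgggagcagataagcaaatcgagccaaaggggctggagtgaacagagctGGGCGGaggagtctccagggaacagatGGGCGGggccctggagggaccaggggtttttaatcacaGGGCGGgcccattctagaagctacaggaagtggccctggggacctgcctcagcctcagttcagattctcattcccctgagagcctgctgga
Ptgs2 promoter, GRCr8 chr13:64713813-64714062, plus strand: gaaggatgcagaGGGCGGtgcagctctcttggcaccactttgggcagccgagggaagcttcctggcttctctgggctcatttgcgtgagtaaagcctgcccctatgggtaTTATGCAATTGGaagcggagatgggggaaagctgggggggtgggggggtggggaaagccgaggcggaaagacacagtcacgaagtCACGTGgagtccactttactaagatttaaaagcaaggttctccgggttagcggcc
Ptgs1 promoter, GRCr8 chr3:39981169-39981418, plus strand: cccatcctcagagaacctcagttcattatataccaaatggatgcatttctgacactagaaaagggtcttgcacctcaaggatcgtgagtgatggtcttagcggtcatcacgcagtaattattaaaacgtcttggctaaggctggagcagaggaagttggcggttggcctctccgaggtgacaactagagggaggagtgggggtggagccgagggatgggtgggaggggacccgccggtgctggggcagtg

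CACGTG occurred once in the Cyp2j4 window and once in the Ptgs2 window, and in no other of the 9 windows of the members. It was present in 5.59% of all 33469 promoter windows of this length. The Cyp2j4 and Ptgs2 windows also each held a TTNNGCAA match, as did that of Ptges, against 9.22% of all windows. In Ptgs2 that match overlapped a CCAAT match on the opposite strand, so their capitals run together. GGGCGG occurred 3 times in the Cyp2j3 window, 2 times in that of Ptgds and once each in those of Cyp2j4, Ptgs2, Alox5 and Ptges. It also occurred once in 1 of the Ephx1 windows and not in that of Ptgs1. Of all windows 30.5% held a match. These motifs were picked after the sequences had been read, and a match describes letters and not a bound site.

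Gene-level array medians lay between 8.17 and 8.21 on the log2 scale and arrays correlated at 0.971 to 0.992 across probe sets. Embryonic kidney markers (12 of 16 measured) had a mean log2 level of 9.30 to 9.48 in MWF and 9.21 to 9.32 in SHR, with no gene called. Of these 12, 10 were higher in MWF and 2 lower. Marker means of other tissues and cell types differed between arrays. The mean of 7 of 9 sympathoadrenal markers was 6.20 in SHR replicate 2 but 9.73 to 10.15 in the other SHR arrays, while MWF replicate 1 stood at 7.53 above the other MWF arrays (6.22 to 6.36). Leukocyte markers, all 9 measured, had means of 7.26 to 7.56 in MWF and 7.52 to 8.18 in SHR, with SHR replicate 2 lowest in SHR. Of these 9, 3 were called lower in MWF, and 7 lay below 0 and 2 above. Liver markers (7 of 8) spanned 7.19 to 9.62 in MWF and 6.77 to 9.58 in SHR. Red cell markers (7 of 8) lay at 8.89 to 10.04 in MWF and 8.36 to 8.93 in SHR, with 2 called higher. Markers of adrenal cortex (4 of 8), of mast cells and megakaryocytes (7 of 9), of endothelium (6 of 8) and of neurons and glia (5 of 7) had means of 6.51 to 6.77, 6.61 to 7.07, 9.13 to 9.32 and 7.85 to 7.91 in MWF, and of 6.41 to 6.58, 6.42 to 6.86, 9.22 to 9.64 and 7.77 to 8.44 in SHR. The brightest adrenal cortex marker stood at percentile 34.3 of all probe sets. Among mast cell and megakaryocyte markers 1 was called higher in MWF, and among neuron and glia markers 1 was called lower. All measured markers of sympathoadrenal cells and of endothelium were lower in MWF, and all of liver and of red cells were higher. The remaining lists held both directions. Over all gene-level probe sets the share called was 6.58%.

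Differences are given as MWF minus SHR in log2 intensity, with a standard error (SE) from limma fitted to all probe sets. A probe set counts as called at a Benjamini-Hochberg adjusted p under 0.05 over the whole table. Among the members, 3 of 10 were called, all lower in MWF, namely Cyp2j4, Ptgs2 and Ptgs1. Of all gene-level probe sets 6.58% were called, 3.4% lower and 3.18% higher in MWF. The same 3 members did not overlap between the strains, as was the case for 14.4% of all probe sets (7% lower and 7.36% higher). Since the genes were chosen with this contrast known, nothing is read from these counts. The median member difference was -0.24 and 8 of 10 lay below 0, while the median over all probe sets was 0.02 and 9346 of 21371 lay below 0. Ephx1 was the only member brighter on average than the median probe set, and detection calls were not analysed here. The plot of member values by array shows the 2 wide gaps, in Cyp2j4 and Ptgs2, beside the overlapping members.

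**Figure D1:**
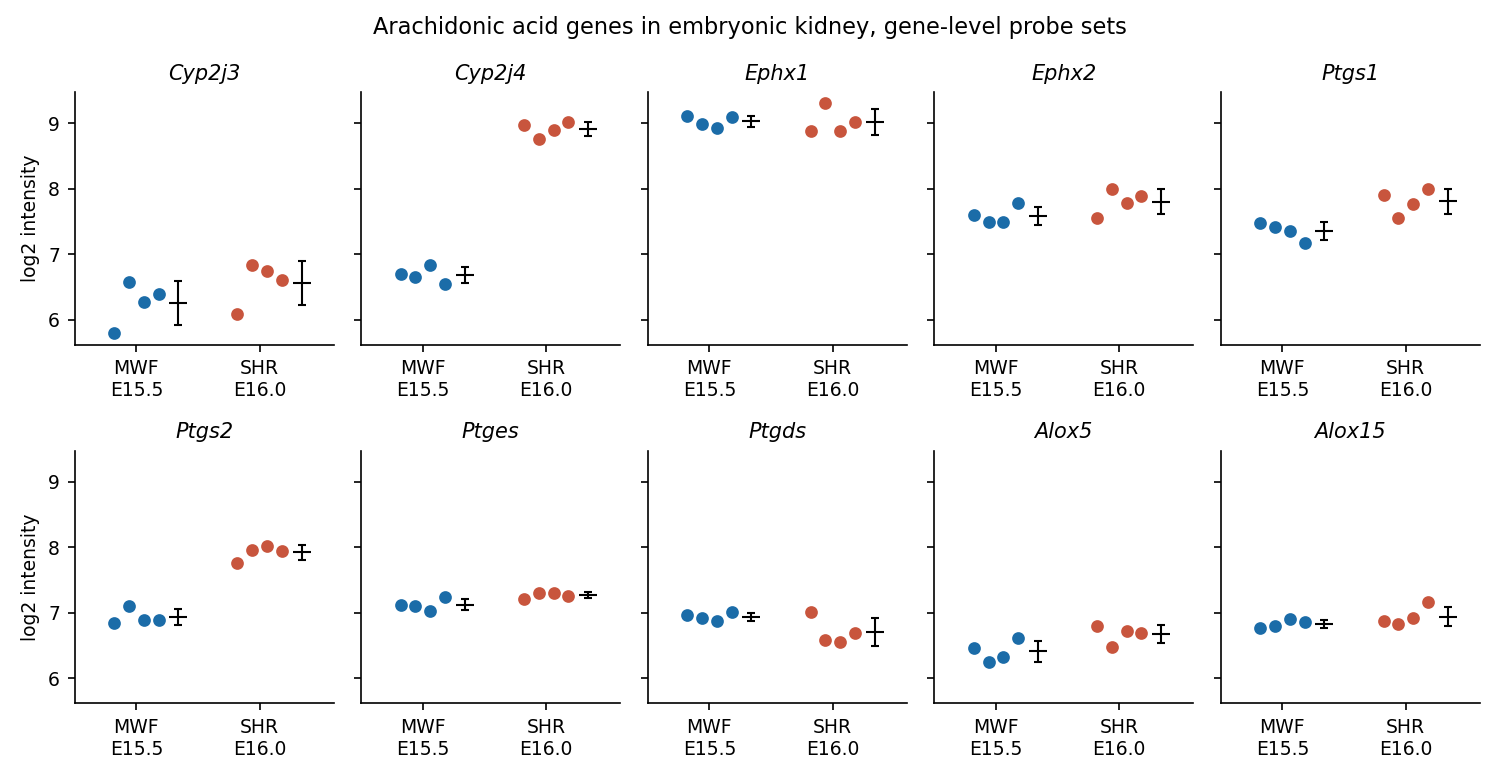
Gene-level log2 intensity (vertical axis) of the 10 members in 4 MWF arrays at E15.5 (blue) and 4 SHR arrays at E16.0 (red), with the mean and SD in black beside the points. Cyp2j4, Ptgs2 and Ptgs1 do not overlap between the strains, and the smallest of these gaps, in Ptgs1, is 0.07.

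Cyp2j4 (probe set 10878157, chromosome 5), which encodes an arachidonic acid epoxygenase, had the widest gap of the members. Its values were 6.69, 6.66, 6.84 and 6.54 in MWF replicates 1 to 4 and 8.97, 8.76, 8.90 and 9.02 in SHR replicates 1 to 4. All SHR arrays stood above all MWF arrays by at least 1.93. The difference was -2.23 ± 0.08 (SE), a 4.69-fold lower intensity in MWF, from means of 6.68 ± 0.12 and 8.91 ± 0.11 (SD, n = 4 each). SHR replicate 2, which stood apart in other genes, was here the lowest SHR array by a small margin, and with any 1 array left out the difference stayed between -2.28 and -2.18.

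At exon level all 12 probe sets of Cyp2j4 were lower in MWF, all were called and none overlapped, where 1.93% of all exon-level probe sets were called (1.04% lower and 0.892% higher) and 8.83% did not overlap (4.59% lower and 4.24% higher). With each array left out in turn, 11 of the 12 were called every time. The difference was not even along the gene's probe sets. It was largest in probe set 10878158, at -4.01 ± 0.29 (SE), with 4.83, 4.18, 5.41 and 4.97 in MWF and 9.04, 9.23, 8.20 and 8.97 in SHR. It was smallest in probe set 10878161, at -0.99 ± 0.17, with 8.13 to 8.59 in MWF and 8.95 to 9.62 in SHR. The brightest probe set, 10878165, stood at 9.38 to 9.72 in MWF and 11.48 to 11.70 in SHR, so this probe set was bright in both strains. Whether it also bound RNA of other Cyp2j genes was not tested.

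Cyp2j3 (probe set 10878170), a further epoxygenase gene and the next measured gene to Cyp2j4, overlapped between the strains. Its values were 5.79, 6.57, 6.27 and 6.38 in MWF and 6.08, 6.83, 6.74 and 6.61 in SHR. Replicate 1 was the lowest array of both strains, and the within-strain SD of 0.33 and 0.34 was the largest among the members. The difference was -0.31 ± 0.20 (SE) and was not called. It was -0.16 without MWF replicate 1 and -0.47 without SHR replicate 1, and exon-level medians per array gave 0.07. Its 2 exon-level probe sets were dim, with means of 4.48 and 4.98, and differed by 0.03 and 0.10. A further 7 exon-level probe sets were annotated to both Cyp2j3 and Cyp2j4 and were not used here.

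The epoxide hydrolase genes showed no strain gap at gene level. Ephx1 (probe set 10770342, chromosome 13), the microsomal enzyme, had a range of 8.93 to 9.11 in MWF and of 8.89 to 9.30 in SHR, a difference of 0.01 ± 0.10 (SE). Its 8 exon-level probe sets were divided evenly around 0 and all overlapped. Ephx2 (probe set 10784621, chromosome 15), the soluble enzyme that hydrolyses epoxides of arachidonic acid, had values of 7.59, 7.48, 7.49 and 7.78 in MWF and 7.55, 7.99, 7.78 and 7.89 in SHR. MWF replicate 4 lay above SHR replicates 1 and 3, so the strains overlapped, and the difference was -0.22 ± 0.11 (SE), not called.

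Single probe sets of Ephx2 went far beyond that gene-level value. Of its 19 exon-level probe sets 3 were called lower in MWF and 15 overlapped. Over the whole exon level 1.93% were called and 8.83% did not overlap. The median difference of the 19 was -0.04, as it was with exon-level medians per array. Probe set 10784638 had values of 6.33, 6.45, 6.27 and 6.83 in MWF and 8.10, 7.48, 7.73 and 8.36 in SHR, a difference of -1.45 ± 0.20 (SE). It was called with any 1 array left out. Probe set 10784626 had 6.51, 5.36, 5.32 and 6.02 in MWF and 7.12, 7.60, 7.20 and 6.97 in SHR, a difference of -1.42 ± 0.27, and the smaller gap of probe set 10784622 was -0.44 ± 0.08. These last calls were each kept in only 1 of the 8 fits with an array left out. Probe set 10784635 went the other way without overlap and without being called (0.46 ± 0.13). The probes were not searched for sequence variants between the strains.

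Ptgs2 (probe set 10764551, chromosome 13), the inducible cyclooxygenase gene, stood at 6.83, 7.10, 6.88 and 6.89 in MWF and at 7.76, 7.96, 8.02 and 7.94 in SHR. Every SHR array was above every MWF array by at least 0.65. The difference was -0.99 ± 0.08 (SE), a 1.99-fold lower intensity in MWF (6.93 ± 0.12 against 7.92 ± 0.12, SD, n = 4 each), and stayed between -1.05 and -0.96 with any 1 array left out. SHR replicate 2 lay inside the range of the other SHR arrays. At exon level 13 of 15 probe sets lay below 0, 8 of them without overlap, and 5 were called lower, with a median of -0.97. Over the whole exon level 1.93% were called and 8.83% did not overlap. Probe set 10764563 differed most, at -2.45 ± 0.39, with 5.18 to 5.44 in MWF and 7.20 to 9.12 in SHR, where SHR replicate 3 alone exceeded 7.5. Probe sets 10764562 and 10764565, at -1.19 ± 0.16 and -1.03 ± 0.15, were called with any 1 array left out. Probe sets 10764563, 10764561 and 10764557 were called in 6, 5 and 1 of these 8 fits.

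Ptgs1 (probe set 10835817, chromosome 3), the constitutive cyclooxygenase gene, had values of 7.48, 7.41, 7.36 and 7.17 in MWF and 7.90, 7.55, 7.77 and 8.00 in SHR. The strains were separated by only 0.07, between MWF replicate 1 and SHR replicate 2. The difference was -0.45 ± 0.11 (SE), 1.37-fold lower in MWF, and of the 8 fits with an array left out only the fit without SHR replicate 2 called it. With the replicate number as a block the difference was the same and was not called. Without SHR replicate 2 it was -0.54. All 13 exon-level probe sets lay below 0, with a median of -0.38 and a range of -0.79 to -0.06. Of the 13, 1 was called and 2 did not overlap, against 1.93% and 8.83% over the whole exon level. The called one, probe set 10835826, was called in only 1 of the 8 fits with an array left out. With the median of the 13 probe sets taken in each array, the difference was -0.69 and was called. Among the SHR arrays, replicate 2 was also lowest in the marker means of leukocytes, sympathoadrenal cells, adrenal cortex, endothelium, and neurons and glia. The part of these cells in the Ptgs1 difference was not tested.

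The terminal prostaglandin synthase genes were not called. Ptges (probe set 10844223, chromosome 3), which makes prostaglandin E2, had a range of 7.03 to 7.24 in MWF and of 7.21 to 7.30 in SHR, a difference of -0.14 ± 0.06 (SE). Of its 5 exon-level probe sets 2 did not overlap, at -0.42 and -0.41, where 8.83% of all exon-level probe sets did not overlap. Exon-level medians per array gave -0.29 for Ptges, not called. Ptgds (probe set 10843460, chromosome 3), the lipocalin-type prostaglandin D synthase gene, was 6.87 to 7.01 in MWF, and in SHR it was 7.02 in replicate 1 and 6.55 to 6.68 in the other arrays. Its difference of 0.23 ± 0.10 was the only one above 0.1 among the members. It was 0.33 and called when SHR replicate 1 was left out, but the median of its 7 exon-level probe sets was 0.04.

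Neither lipoxygenase gene was called. Alox5 (probe set 10864848, chromosome 4), whose product starts leukotriene synthesis, had values of 6.46, 6.25, 6.32 and 6.61 in MWF and 6.79, 6.47, 6.73 and 6.69 in SHR. The difference was -0.26 ± 0.10 (SE), with overlap between MWF replicate 4 and SHR replicate 2, and the median of its 14 exon-level probe sets was -0.17. With array weights it was called, at -0.34, whereas exon-level medians per array gave -0.05, not called. Alox15 (probe set 10744425, chromosome 10), a 12/15-lipoxygenase gene, had a range of 6.76 to 6.90 in MWF and of 6.82 to 7.16 in SHR. Its difference was -0.11 ± 0.08, all 15 of its exon-level probe sets overlapped, and their median was -0.03. Without SHR replicate 4 the gene-level difference was -0.04.

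**Figure D2:**
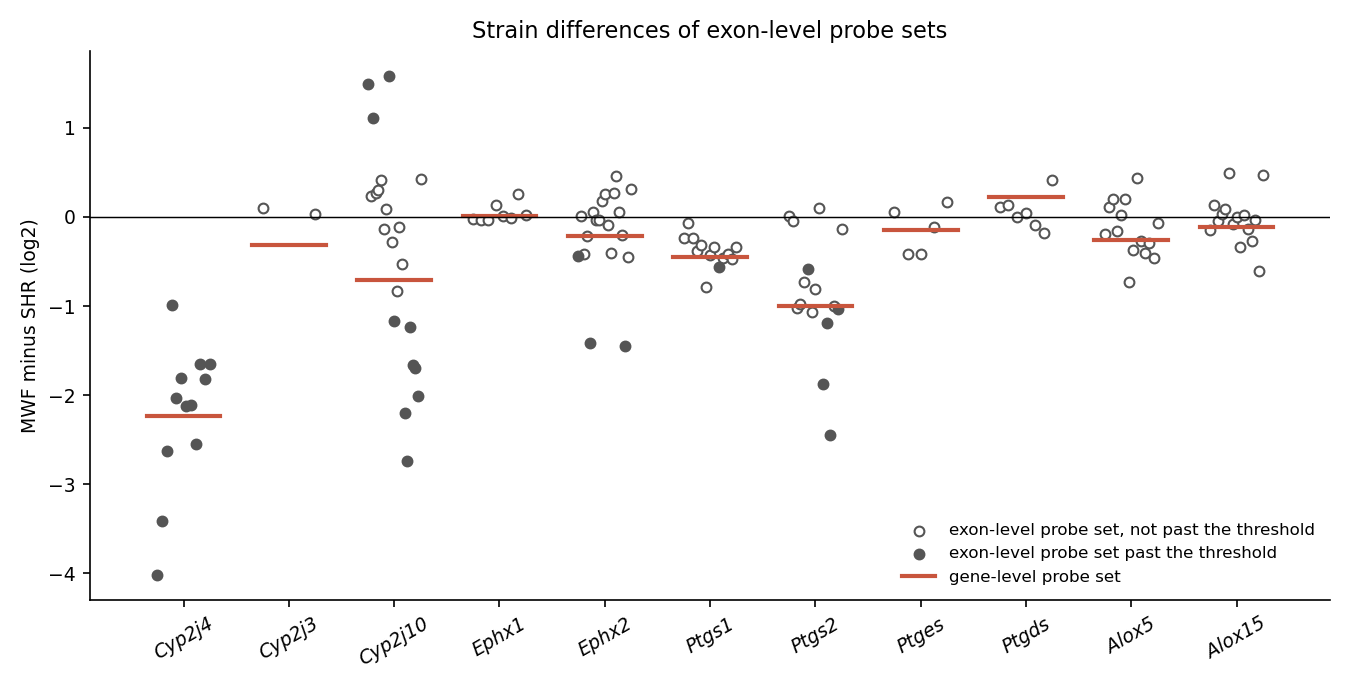
Differences of exon-level probe sets (points, MWF minus SHR, log2, in order of probe set number within each gene) of the members and of Cyp2j10, with the gene-level difference as a red line. Filled points passed the threshold. All 12 points of Cyp2j4 are filled and below 0, the points of Ephx1 lie around 0, and those of Cyp2j10 fall on both sides of 0.

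The measured neighbours of each member were compared to see whether a difference was shared along the chromosome. The 5 nearest measured genes on each side, in GRCr8 order, comprised 90 genes besides the members, of which 3 were called (3.33%, against 6.58% of all probe sets). This order was not stable. Without SHR replicate 2, 12 of the 90 and 2279 of 21371 probe sets were called, a larger share among the neighbours, and the same held with array weights (13 of 90 and 2397 of 21371). Without MWF replicate 2 or SHR replicate 4 the count was 1. The neighbours of Cyp2j4 were at -0.15 (Jun), 0.04 (Fggy) and 0.00 (Hook1) on the side of Cyp2j10 and at -0.12 (Nfia), -0.08 (Tm2d1), 0.32 (Kank4) and -0.04 (Usp1) beyond Cyp2j3, none of them called. Eqtn, the fifth gene on the Cyp2j10 side, was higher in MWF by 0.68 ± 0.17 (limma adjusted p = 0.0482), with overlap between the strains. It was called in only 1 of the 8 fits with an array left out, that without MWF replicate 4.

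Cyp2j10, the measured gene next to Cyp2j4 and of the same P450 subfamily, was lower in MWF at gene level. It stood at 6.08, 6.15, 6.24 and 6.12 in MWF and 6.95, 6.66, 6.96 and 6.86 in SHR, a difference of -0.71 ± 0.08 (SE, limma adjusted p = 0.00108). The strains did not overlap. Its 21 exon-level probe sets did not share that direction. Of these 7 were called lower, down to -2.74, and 3 were called higher, up to 1.58. Over the whole exon level 1.04% were called lower and 0.892% higher. By probe set number, the 3 called higher lay between 10878126 and 10878134 and the 7 called lower between 10878136 and 10878145. The median of the 21 was -0.14, so the gene-level value does not describe the whole transcript. With the median of its exon-level probe sets per array the difference was -0.42 and was not called (limma adjusted p = 0.0942). Cyp2j genes are similar in sequence, and probes may not separate them fully.

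Around Ptgs2, the adjacent measured gene was Pla2g4a, the cytosolic phospholipase A2 that supplies arachidonic acid to cyclooxygenases. Pla2g4a was at 0.26 ± 0.08 without being called (limma adjusted p = 0.0883), the opposite sign to Ptgs2. Brinp3, the next gene beyond Pla2g4a, was at -0.90 ± 0.36, the same sign and near the size of Ptgs2, with overlap and without being called (limma adjusted p = 0.175). On the other side Tpr was at -0.03. Rgs2, a regulator of G-protein signalling and the fifth gene on the side of Pla2g4a, was higher in MWF by 0.38 ± 0.07 (limma adjusted p = 0.0161), a call lost without MWF replicate 2 or SHR replicate 4. None of the 10 neighbours of Ptgs1 was called by limma, 2 of them had an unadjusted p under 0.05, and their differences lay between -0.11 and 0.27.

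**Figure D3:**
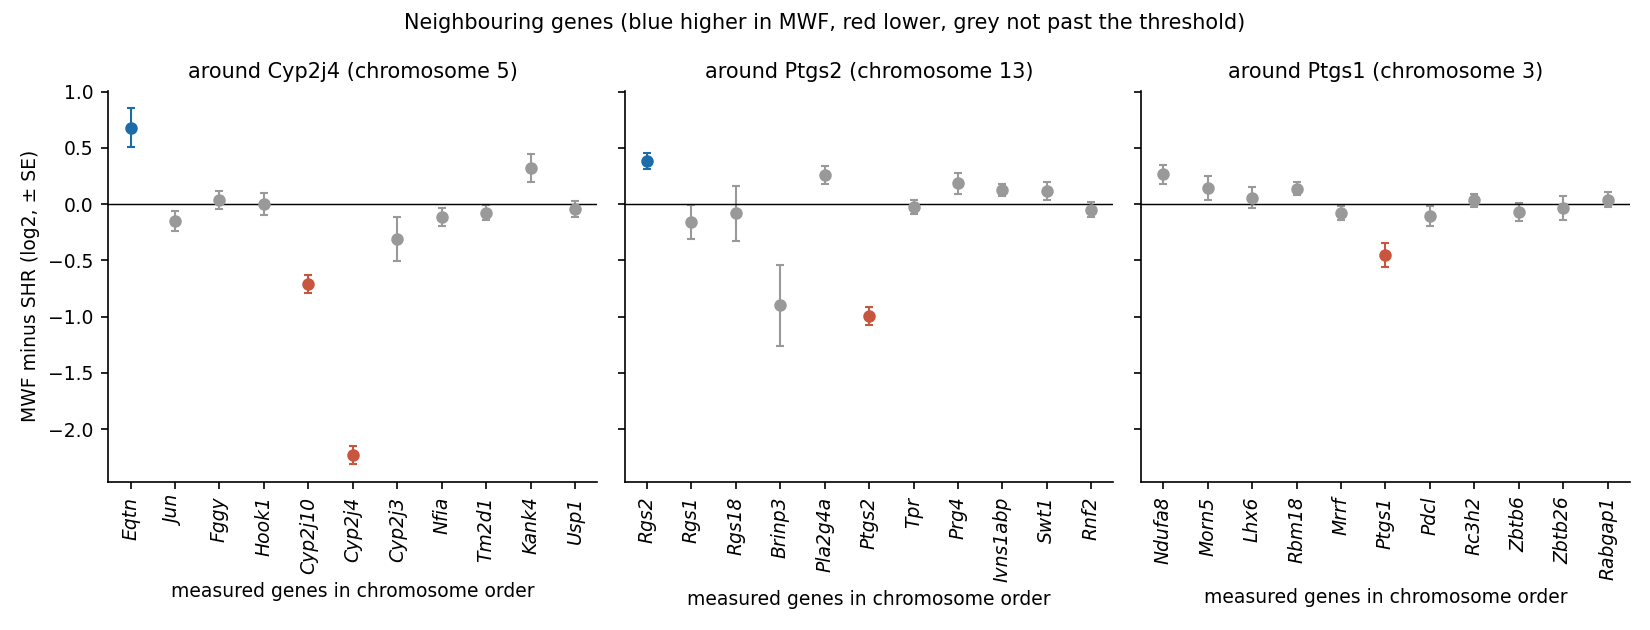
Differences (MWF minus SHR, log2, bars are ± SE) of the 5 nearest measured genes on each side of Cyp2j4, Ptgs2 and Ptgs1, in chromosome order. Cyp2j4 at -2.23 and Ptgs2 at -0.99 stand below the neighbours shown with them, Brinp3 at -0.90 lies near Ptgs2 in size with a wide error, and Cyp2j10 at -0.71 is the only gene called lower that is not a member.

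The remaining genes of arachidonic acid metabolism were taken from 7 lists ordered by role, with 53 of 72 genes measured. Of these 53, 5 were called higher and 8 lower in MWF (24.5%, against 6.58% of all probe sets), and the median difference was -0.04. Between the strains 19 did not overlap, 8 higher and 11 lower in MWF, as was the case for 14.4% of all probe sets. The lists were chosen with earlier results of these data known, so nothing is read from these counts. Adjusted p-values below are from limma over all 21371 probe sets. Calls occurred in both directions in the lists of prostanoid enzymes, prostanoid receptors, lipoxygenase enzymes and P450 hydroxylases. The count fell to 6 without MWF replicate 2 and to 8 without SHR replicate 4. Over all 21371 probe sets the calls also fell in these fits, from 1407 to 793 and 775.

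Genes of arachidonic acid release and re-esterification had 1 of 9 called, higher in MWF. Pla2g2a, a secreted phospholipase A2 gene, was higher by 0.51 ± 0.10 (SE, adjusted p = 0.0202), with 6.85 to 7.16 in MWF and 6.27 to 6.68 in SHR. Its call was lost when MWF replicate 1, 2 or 3 or SHR replicate 3 was left out and with the replicate block (adjusted p = 0.0534), and the exon-level medians gave 0.22. The re-esterifying enzyme gene Lpcat3 was at -0.20 ± 0.07 and the arachidonate-CoA ligase gene Acsl4 at -0.13 ± 0.07, both not called.

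Among 11 prostanoid enzyme genes, 3 were lower and 1 was higher in MWF. Ptgr1, which inactivates leukotriene B4 and prostaglandin metabolites, stood at 7.09, 7.45, 7.14 and 7.75 in MWF and 8.05, 8.36, 8.12 and 8.16 in SHR. All SHR arrays were above all MWF arrays, and the difference was -0.82 ± 0.14 (SE, adjusted p = 0.011). Cbr1, a carbonyl reductase that can turn prostaglandin E2 into F2 alpha, was lower by -0.38 ± 0.07 (adjusted p = 0.0137) in its brighter probe set and by -0.50 ± 0.07 in the other. The calls of Ptgr1 and Cbr1 held in each alternative run on them.

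The thromboxane synthase gene Tbxas1 was lower by -0.47 ± 0.09 (adjusted p = 0.0203), with 5.77 to 5.99 in MWF and 6.22 to 6.62 in SHR. It was dim, with a mean at percentile 1.49 of all probe sets. The call did not survive leaving out MWF replicate 2 or 3, nor the use of exon-level medians (-0.23). Hpgds, the haematopoietic prostaglandin D synthase gene, was higher, at 6.93, 6.71, 6.45 and 6.79 in MWF against 5.74, 5.92, 6.51 and 5.91 in SHR. Its mean was also low, at percentile 4.50. The strains overlapped through SHR replicate 3, and the difference of 0.70 ± 0.17 (adjusted p = 0.0384) passed in only 2 of the 8 fits with an array left out, those without MWF replicate 3 or SHR replicate 3. It was 0.86 without SHR replicate 3, 0.31 with medians of exon-level probe sets, and lost its call with the replicate block (adjusted p = 0.0854).

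Prostaglandin receptor genes had 1 of 6 lower and 1 higher. Ptger4, a receptor gene of prostaglandin E2, was lower by -0.33 ± 0.07 (adjusted p = 0.0275), with 7.84 to 8.12 in MWF and 8.27 to 8.40 in SHR. Ptger1, encoding another receptor of the same ligand, was higher by 0.26 ± 0.07 (adjusted p = 0.0468), with 6.84 to 7.03 against 6.64 to 6.76. Neither call was stable. With an array left out, Ptger4 was called only in the fits without MWF replicate 1 and without SHR replicate 2, and Ptger1 only in that without MWF replicate 1, and both lost the call with the replicate block (adjusted p = 0.0587 and 0.0929).

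The other receptors of prostaglandin E2 were not called. Ptger3 was at 0.47 ± 0.12 (adjusted p = 0.0571) without overlap, and SHR replicate 2 had its lowest value, 6.48. Ptger2 was at -0.61 ± 0.22 (adjusted p = 0.133), with 6.78 to 7.11 in MWF, 6.85 in SHR replicate 2 and 7.70 to 8.00 in the other SHR arrays. In Ptger2 SHR replicate 2 thus lay among the MWF arrays. In the sympathoadrenal marker mean it lay just below them, at 6.20 against 6.22 to 7.53. The part of sympathoadrenal cells in the Ptger2 values was not tested. Ptger2 was represented by 2 probe sets with identical values, counted as 1.

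Of 8 lipoxygenase pathway genes, 1 was lower and 1 higher. Alox5ap, the activating protein that presents arachidonic acid to 5-lipoxygenase, was lower in MWF, at 7.29, 7.35, 7.27 and 7.41 against 7.77, 7.74, 7.75 and 7.99 in SHR. SHR replicate 2 was here close to SHR replicates 1 and 3. The difference was -0.49 ± 0.07 (SE, adjusted p = 0.00481), and it was called in each alternative run on it. Alox5ap is a leukocyte gene, and leukocyte marker means were 7.26 to 7.56 in MWF and 7.52 to 8.18 in SHR; their part in the Alox5ap difference was not tested. Dpep2, a dipeptidase gene of leukotriene conversion, was higher by 0.37 ± 0.08 (adjusted p = 0.0259), called in 3 of the 8 fits with an array left out, those without MWF replicate 3, SHR replicate 1 or SHR replicate 2. With medians of exon-level probe sets it was 0.18. Of 2 measured leukotriene receptor genes limma called 0, also 0 at an unadjusted p under 0.05, with Cysltr2 at -0.49 ± 0.38 (adjusted p = 0.497). Cysltr2 was 6.99 in SHR replicate 4 and 4.91 to 5.94 in the other SHR arrays. Its difference was -0.10 without SHR replicate 4 and -0.79 without SHR replicate 3, not called in either fit.

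In the P450 lists, 1 of 9 epoxygenase and related genes was called, Cyp2j10 as described above. Of 8 omega-hydroxylase genes 2 were lower and 1 higher, all of the Cyp4f family, whose members hydroxylate leukotriene B4 and arachidonic acid. Cyp4f4 was higher in MWF, at 7.07, 7.01, 7.20 and 6.87 against 6.60, 6.42, 6.58 and 6.37 in SHR. That difference of 0.55 ± 0.09 (adjusted p = 0.0066) was called in each alternative run on it. Cyp4f5 was lower by -0.60 ± 0.11 (adjusted p = 0.0126), with 7.02 to 7.38 in MWF and 7.51 to 7.92 in SHR, and Cyp4f6 by -0.37 ± 0.07 (adjusted p = 0.0164), with 8.25 to 8.49 and 8.63 to 8.78. Both kept their direction with medians of exon-level probe sets but not their calls (-0.42 and -0.36), and Cyp4f6 also lost its call without MWF replicate 2 or SHR replicate 4. The Cyp4f genes are similar in sequence, so probes may not separate them fully. Cyp4a1 (0.36 ± 0.12), Cyp4a3 (0.21 ± 0.13) and Cyp4a8 (0.07 ± 0.14), omega-hydroxylases of the other family, were not called.

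**Figure D4:**
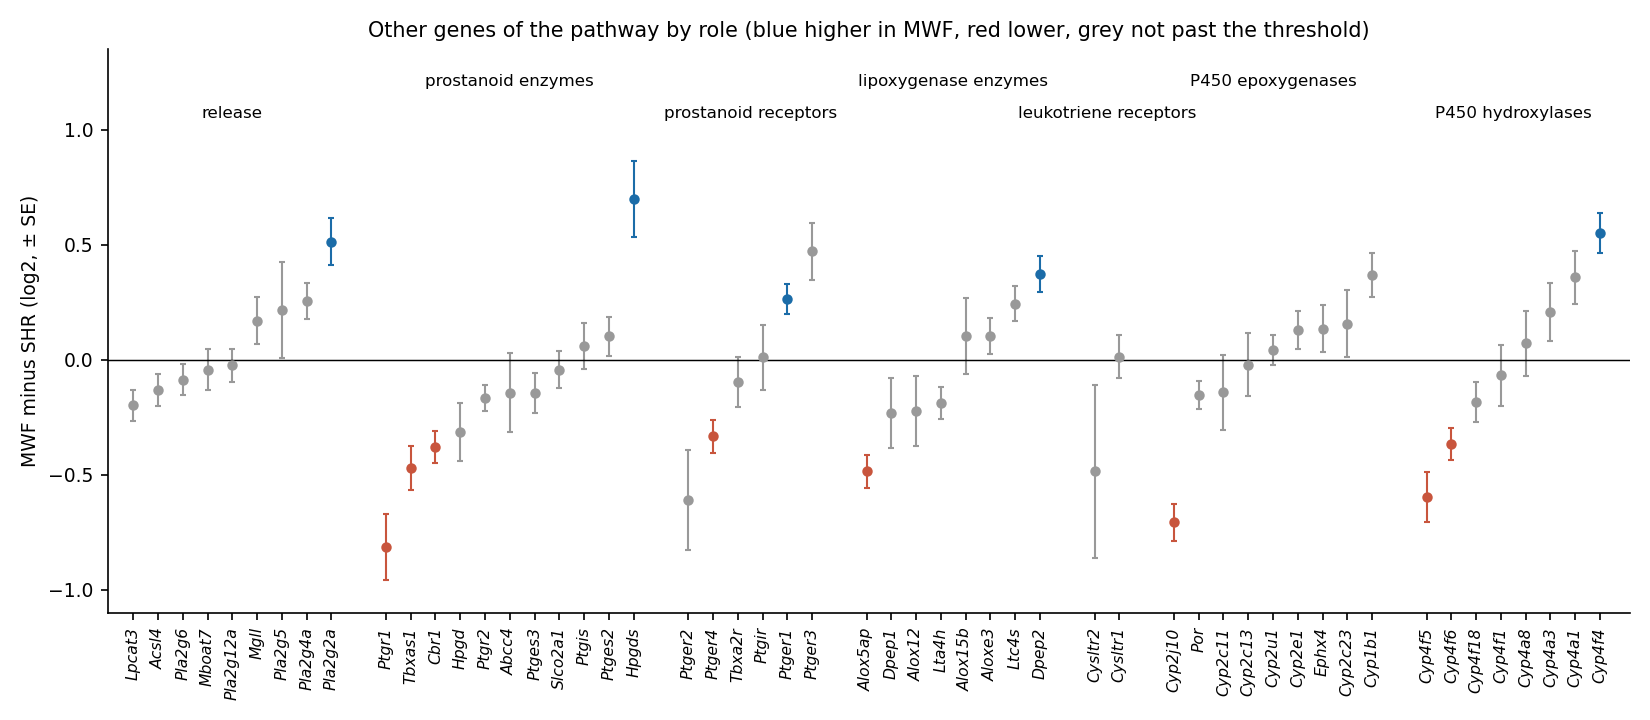
Differences (MWF minus SHR, log2, bars are ± SE) of the 53 other measured genes of arachidonic acid metabolism, grouped by role, with 5 called higher in MWF in blue and 8 called lower in red. Called genes lie between -0.82 (Ptgr1) and 0.70 (Hpgds).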

How the data were processed

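Affymetrix arrays of 8 embryonic kidney samples, 4 MWF and 4 SHR, were used at gene and exon level. The authors deposited log2 intensities, and array medians that differ by little show that the arrays had been scaled to each other. Per the submitters' processing notes Partek was used. Its version and the methods of background correction, summarisation, normalization and filtering were not given in the sources used here. Arrays have no read depth, and precision is limited by how many there are. No 2 arrays held identical values.

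Gene symbols came from GEO's platform table and were brought up to date with RefSeq (GRCr8); 12941 gene-level and 172924 exon-level probe sets had 1 symbol. Probe sets without a single symbol were tested but not named. For a gene with several probe sets the one with the highest mean over all arrays was used. Strain was the single term of a limma 3.58.1 model (lmFit, then eBayes, R 4.3.3) run on each table with all 8 arrays, and p-values were adjusted over the whole table. The fit was tested on simulated data. No genome build of the array was known, so RefSeq gave gene order and promoter sequences only.

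The members and lists were chosen with earlier results of these data known. Named by rule were the members, each called pathway gene, the gene with the smallest p of each role list and each called neighbour. Lpcat3, Acsl4, Pla2g4a, Ptger2, Ptger3, the Cyp4a genes, the neighbours not called and single exon-level probe sets were chosen after their values were seen. The alternatives were other normalizations, only probe sets brighter than the median, a variance trend, array weights, a replicate block, leaving out each array, and exon-level medians. Since each member had 1 gene-level probe set, the alternative of using every gene-level probe set of a member gave no further value.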

Additional observations from a re-analysis of the deposited data

Results flagged for a closer look

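In 66 groups of 4 arrays, 4 held an array far from the other 3 (by the gap to the nearest array as a ratio of the whole range), and chance alone gives such a gap in about 1 of 20 groups. Alox5ap in SHR had a ratio of 0.896 through SHR replicate 4 (7.99 against 7.74 to 7.77). The sympathoadrenal marker mean had 0.890 in MWF through MWF replicate 1 and 0.893 in SHR through SHR replicate 2. The marker mean of neurons and glia had 0.930 in SHR, where SHR replicate 2 was at 7.77 and the other arrays between 8.39 and 8.44.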

How the results depend on the processing

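Cyp2j4 and Ptgs2 stayed below 0 and called in each alternative that kept their probe sets; the filter on dim probe sets left only Ephx1 of the members, with 0 called in limma. Leaving out 1 array gave 2 to 3 called members, 6 to 15 of the 53 pathway genes, 1 to 12 of the 90 neighbours (12 without SHR replicate 2), 775 to 2279 gene-level and 2405 to 6210 exon-level probe sets, against 1407 and 4112 with all arrays. Without SHR replicate 2 the gene-level count was 2279 and the exon-level count 6210. Keeping only probe sets brighter than the median left 2 of 13 pathway genes and 872 probe sets called. Medians of exon-level probe sets gave 7 of 68 pathway genes and 822 of 16582 genes called, and placed Cysltr2 at 0.078 with its sign reversed; the cause was not tested. Array weights gave 13 neighbours and 2397 probe sets, and a variance trend with robust estimation gave 6 neighbours. With the replicate number as a block, 1312 gene-level and 2172 exon-level probe sets, 2 members, 9 pathway genes and 3 neighbours were called. Same-numbered arrays deviated together with correlations of 0.10 to 0.28 across probe sets. MWF replicates 1, 2 and 3 correlated best with the same-numbered SHR array, and MWF replicate 4 with SHR replicate 2. The marker means of liver and of red cells each ranked the replicates in the same order in both strains, and those of the other lists did not. The labels state no pairing. Most members were dim, which limits what their small differences can show.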
